A study of Homo sapiens with 5 samples.

Results

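Chaperones of the cytosol and of the mitochondria fold other proteins, and 40 of their genes were examined here for binding of the Mediator subunits MED17 and MED30 and of the transcription factor MYC. The set comprised HSP90 and its co-chaperones (9 genes), HSP70 and HSP110 proteins (7), J-domain proteins with BAG3 (5), the mitochondrial chaperonin pair HSPD1 and HSPE1 (2), the TRiC chaperonin (8), prefoldin (6), and HSPB1, PPIA and HSF1 (3). Members were chosen by known function, out of 20037 protein-coding genes, and a gene was counted as bound when a peak came within 1 kb of either end of its RefSeq annotation on hg38.

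The data were ChIP-seq peak lists from MIA PaCa-2, an established human pancreatic carcinoma line. MED17, MED30 and MYC were each profiled once in the unmodified line under normal culture, called parental below. A derivative of the line in which doxycycline switches on a hairpin RNA targeting MED30 (teton shMED30) gave 2 further MYC libraries, 1 without doxycycline and 1 after 3 days at a labelled 0.5 mg/ml. The hairpin construct was therefore present in both of these libraries, and whether the line was 1 clone was not given in the sources used here. Fixation for Mediator combined disuccinimidyl glutarate (2 mM, 20 min) with formaldehyde (1%, 10 min), whereas MYC samples received formaldehyde alone. Each of the 5 libraries had 1 replicate, so no difference between them could be tested, and the knockdown itself could not be checked from peaks.

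Parental MYC had 14331 peaks, MED17 13172 and MED30 12040, and the MYC lists of the hairpin line were shorter, with 7158 peaks before doxycycline and 4621 after. Depth differed: the background pileup, the number of fragments expected to overlap a position by chance, was 1.60, 1.65 and 2.56 in the parental lists, 0.310 without doxycycline and 0.186 with it. The 3 parental lists reached down to a q of 0.05 and the other 2 to 0.1. Of the genes fixed as markers of the line, KRT8, KRT18, KRT19 and VIM had MED17 and MED30 peaks and EPCAM and CDH1 had none, and 8 markers of blood, stroma, endothelium, islet and acinar cells had no peak in any list.

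HSP90 and HSP70 are ATP-driven folding machines whose cycles are set by co-chaperones, J-domain proteins deliver clients to HSP70, and prefoldin passes nascent actin and tubulin to the ring-shaped TRiC complex. HSPD1 and HSPE1 form the folding chamber of the mitochondrial matrix. Heat shock factor HSF1 drives many of these genes under stress through inverted GAA repeats, MYC with its partner MAX prefers the E-box CACGTG, and Mediator links such factors to RNA polymerase II.

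Most chaperone genes were bound by all 3 proteins in parental cells. MED17 had a peak at 35 of the 40 genes (87.5%, against 47.9% of all protein-coding genes), MED30 at 32 (80.0%, against 41.7%) and MYC at 34 (85.0%, against 39%). All 3 were found at 31 genes (77.5%, against 31.2%). In the shMED30 line MYC had a peak at 14 genes without doxycycline (35.0%, against 8.55%) and at 11 with it (27.5%, against 4.71%). HSPA9, CCT3, CCT4, CCT5, CCT7, PPIA and HSF1 were in all 5 lists, 7 of 40 genes against 2.62% of all genes, and TRAP1 was in every list but that of MED30.

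**Figure D1:**
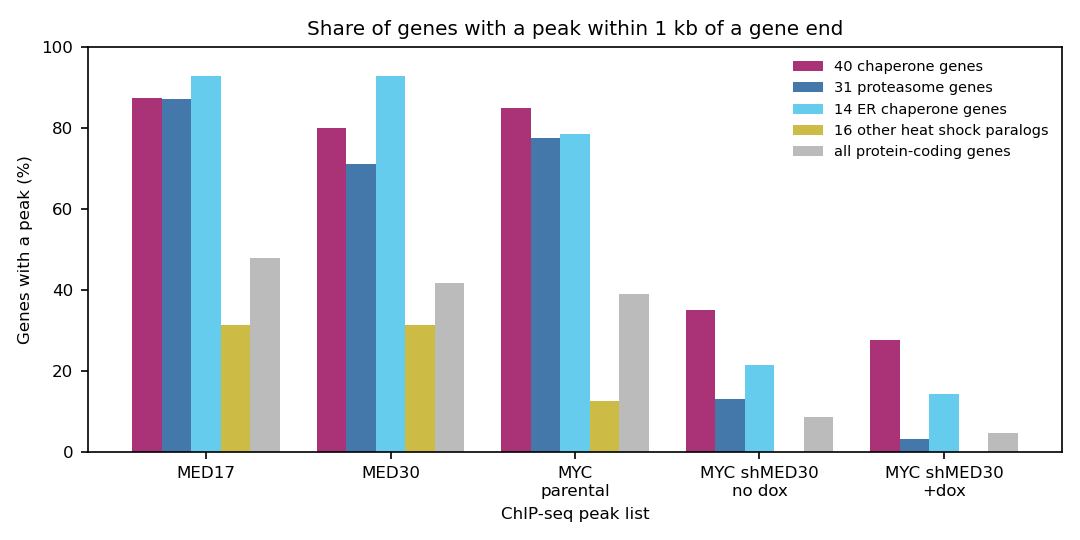
Share of genes with a peak within 1 kb of a gene end (y axis, percent) in each of the 5 peak lists (x axis), for the 40 chaperone genes, 31 proteasome genes, 14 ER chaperone genes, 16 other heat shock paralogs and all protein-coding genes. The chaperone bars stand at 87.5%, 80.0%, 85.0%, 35.0% and 27.5%, above the grey bar of all genes in each list. Bars are counts from 1 library each and carry no error.

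The peaks at chaperone genes were also somewhat stronger than those at other bound genes. Fold enrichment here is the authors' value for a peak, its summit signal over the local background, and is used only within a list. For the strongest peak at each bound gene, the median fold was 5.76 at the 35 chaperone genes against 5.19 at all genes with a MED17 peak, 5.52 against 5.05 for MED30, and 5.59 against 4.68 for parental MYC. In the shMED30 line it was 7.10 against 5.91 without doxycycline and 6.48 against 5.50 with it. A chaperone gene lay above the median of all bound genes in 26 of 35 cases for MED17, 20 of 32 for MED30 and 24 of 34 for parental MYC. Pileup at the summit followed the same order, with medians of 36, 29.5 and 36.5 fragments at chaperone genes against 25, 22 and 24 at all bound genes.

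**Figure D2:**
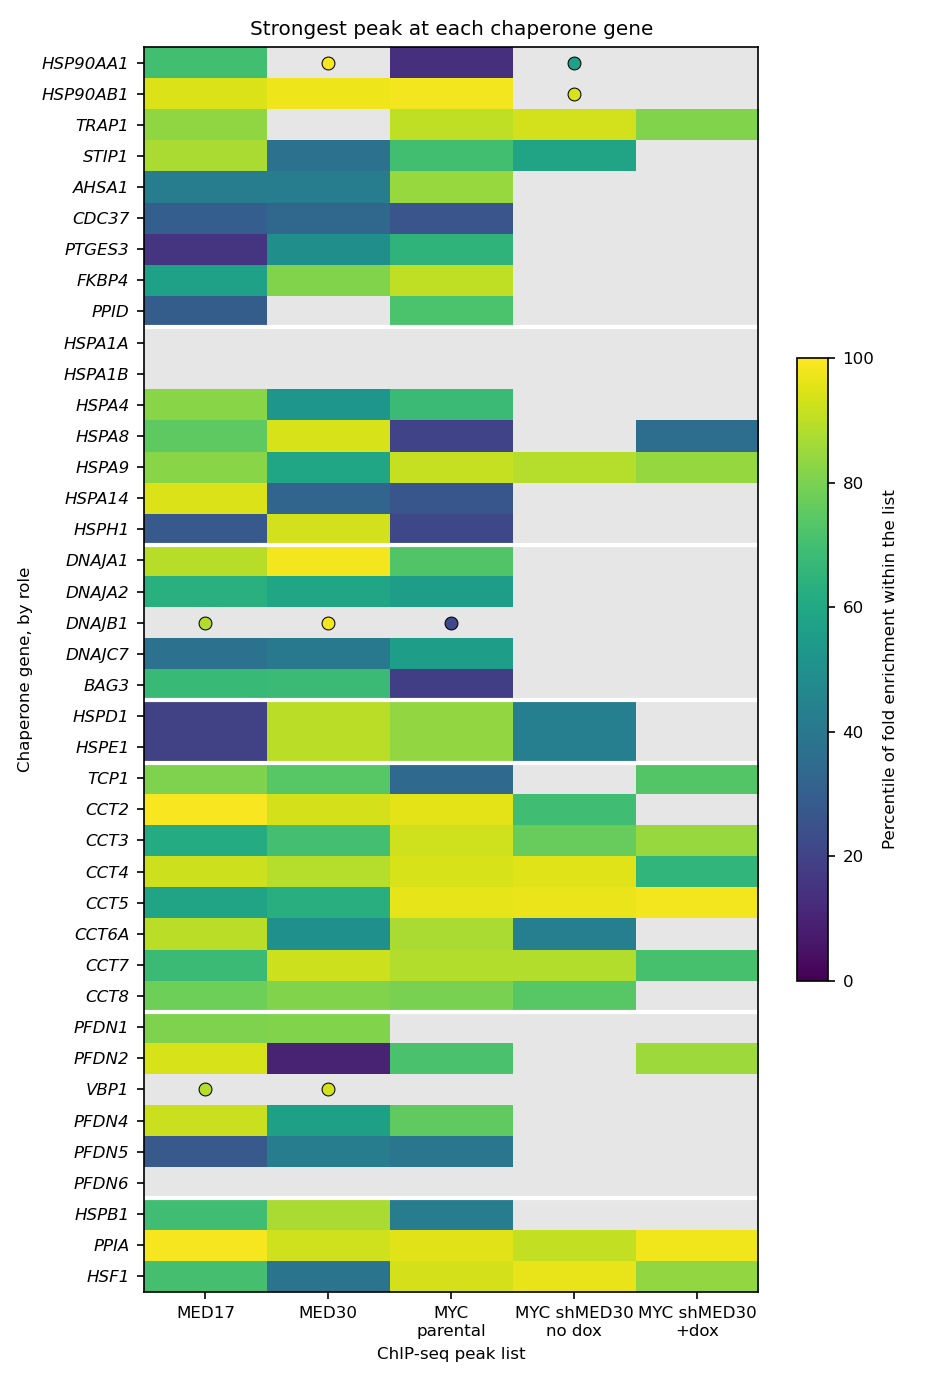
Strongest peak within 1 kb of a gene end at each of the 40 chaperone genes (rows, ordered by role, white lines between roles) in each peak list (columns), coloured by the percentile of its fold enrichment among all peaks of that list. Grey cells have no peak within 1 kb of a gene end, and circles in them mark peaks found at an internal start of the gene. The stronger MED17 and parental MYC peaks at the internal start of HSP90AA1 are not drawn. The TRiC genes are bright in the parental MYC column except TCP1, while bound HSP70 genes other than HSPA4 and HSPA9 are dark there.

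The TRiC complex, which folds actin, tubulin and many WD-repeat proteins, had Mediator and MYC at every subunit gene. In this and the next paragraphs MYC values are from parental cells unless doxycycline is named. All 8 subunit genes had peaks of MED17, MED30 and parental MYC, as did HSPD1 and HSPE1 (2 of 2) and HSPB1, PPIA and HSF1 (3 of 3), and their median parental MYC fold of 7.61 lay at the 90.8th percentile of genes with a MYC peak. CCT5 had a parental MYC fold of 9.67, with a MED17 fold of 5.26 and a MED30 fold of 5.25. CCT2 stood high in all 3 lists, at 10.5 for MED17, 7.67 for MED30 and 9.29 for MYC. CCT4 had folds of 7.37, 6.86 and 8.55 in the same order, and CCT3 folds of 5.38, 5.57 and 8.06. The MYC values of these 4 subunits all lay above the 92nd percentile of the list's peaks, while the Mediator values of CCT3 and CCT5 were nearer its middle. The peaks of CCT4 and CCT5 were also counted for COMMD1 and ATPSCKMT in every list. Those of CCT3 were also counted for TSACC in the 3 parental lists. Such peaks cannot be assigned to a single gene, while the peaks of CCT2 were counted for no other gene.

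CCT7 had folds of 5.65 for MED17, 7.43 for MED30 and 7.17 for MYC, from peaks also counted for PRADC1. CCT8 had 6.11, 6.17 and 6.05, and CCT6A had 6.999, 4.82 and 6.94, the MED17 value coming from a peak that did not touch the gene and was shared with the end of SUMF2. The MED30 and MYC values of CCT6A came from peaks also counted for PSPH. Its MYC peak without doxycycline was counted for PSPH too and lay outside the gene. TCP1 was the exception for MYC. Its folds for MED17 and MED30 were 6.26 and 5.72, from peaks also counted for MRPL18. Its 2 parental MYC peaks reached only 3.99, and the stronger lay outside the gene, also beside MRPL18. Among the 8 subunits TCP1 was thus alone in falling below the 50th percentile of the parental MYC list, at the 34.1st.

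HSP90AB1, the constitutive cytosolic HSP90 (chr6:44246194-44253883), carried the strongest parental MYC peak of the set. Its folds were 7.78 for MED17, 9.40 for MED30 and 11.3 for MYC, and the MYC summit had a pileup of 123 fragments. HSP90AA1, the stress-inducible HSP90 (chr14:102080742-102139749), spans several promoters. Its peaks within 1 kb of an end were a MED17 peak of 5.72 and a MYC peak of 3.42, both shared with WDR20, with no MED30 peak. At its internal start the same gene had a MED17 fold of 6.79, a MED30 fold of 12.2 and a MYC fold of 4.45. That MED30 peak ranked 110 of 12040 and had a pileup of 100 fragments, and both HSP90 genes lay above the 97th percentile of MED30 peaks but at the 98.2nd and 49.0th of MYC peaks. HSP90AA1, HSPA8, HSPD1 and PPIA have processed pseudogenes and HSPA1A has the near-identical copy HSPA1B, so how reads were placed among copies makes their values uncertain.

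The other HSP90-related genes ranged from low to high in each list. FKBP4, an immunophilin co-chaperone, had folds of 5.22 for MED17, 6.17 for MED30 and 7.51 for MYC, and STIP1, which bridges HSP70 and HSP90, had 6.75, 4.45 and 5.33. AHSA1, the activator of the HSP90 ATPase, had 4.73, 4.58 and 6.58, from peaks also counted for VIPAS39. The kinase-loading factor CDC37 had 4.33, 4.32 and 3.78, and p23 (PTGES3) had 3.83, 4.81 and 5.05. TRAP1, the mitochondrial HSP90, and PPID, cyclophilin 40, had no MED30 peak: their MED17 folds were 6.45 and 4.31 and their MYC folds 7.49 and 5.42. The nearest MED30 peaks to them were 46.1 and 36.6 kb away.

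HSP70 genes divided in the MYC list. HSPA9, the mitochondrial HSP70 (chr5:138553756-138575401), had folds of 6.38 for MED17, 5.12 for MED30 and 7.61 for MYC. HSPA8, the constitutive HSC70, had 5.99, 7.69 and 3.62, and the HSP110 gene HSPH1, a nucleotide exchange factor for HSP70, had 4.26, 7.55 and 3.65. HSPA4, another HSP110 relative, had 6.37, 4.90 and 5.24. HSPA14, a ribosome-associated HSP70, had 7.79, 4.29 and 3.79, from peaks also counted for CDNF and MSANTD7, and its stronger MYC peak lay outside the gene. HSPA8 and HSPH1 were therefore above the 93rd percentile of MED30 peaks and below the 22nd of MYC peaks.

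Among the J-domain genes, DNAJA1, an HSP70 partner in the cytosol, had folds of 6.97 for MED17, 9.80 for MED30 and 5.49 for MYC, the MYC peak ending just before the gene and also counted for APTX. DNAJA2 had 5.45, 5.11 and 4.69, and DNAJC7 4.59, 4.52 and 4.67 from peaks also within reach of NKIRAS2. BAG3, an HSP70 co-factor in selective autophagy, had 5.64, 5.47 and 3.57. No gene of this role had a MYC peak in either library of the shMED30 line. DNAJB1, the inducible HSP40, had no peak within 1 kb of its annotated ends, but at its internal start MED17 had a fold of 6.91, MED30 of 10.1 and MYC of 3.66.

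HSPD1 and HSPE1 are transcribed head to head and shared 1 peak in each parental list, with a MED17 fold of 3.98, a MED30 fold of 6.98 and a parental MYC fold of 6.46. Their MED17 value lay at the 19.3rd percentile of its list and their MED30 value at the 89.6th. HSPB1, the small heat shock protein HSP27, had 5.70, 6.70 and 4.22. PPIA, cyclophilin A, was high throughout, at 9.53, 7.48 and 9.14. HSF1, the heat shock factor itself, had 5.76, 4.46 and 8.41, and its peaks were also counted for its divergent neighbour BOP1.

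Prefoldin was the least uniformly bound role. PFDN4 had folds of 7.34 for MED17, 5.04 for MED30 and 5.70 for MYC, and PFDN2 had 7.65, 3.53 and 5.40 from peaks beside NIT1. PFDN1 had 6.27 and 6.16 for Mediator and no MYC peak, the only chaperone gene of this pattern within 1 kb of a gene end (2.5%, against 7.8% of all genes). PFDN5, which is also known as the MYC-binding protein MM-1, had 4.26, 4.56 and 4.16, but all 3 peaks lay past its far end, beside MYG1, and none stood at its start. VBP1 had no peak within 1 kb of an end, and at an internal start it showed the same pattern as PFDN1, with MED17 and MED30 folds of 6.92 and 7.54 and no MYC peak.

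Measured at listed starts, which 35 of the 40 genes have in the promoter table, the picture changed for few members. MED17 was at 31 of these 35 (against 51.8% of the 15843 genes with a listed start), MED30 at 29 (against 44.8%) and parental MYC at 29 (against 42.2%), and 27 had all 3 (against 33.9%). MYC without doxycycline was at 14 (against 9.4%) and with it at 9 (against 5.17%). HSPA14, PFDN2, FKBP4, HSF1 and CCT6A were not matched in that table. With ends or starts allowed, an alternative chosen after seeing the data, 37 genes had MED17, 35 had MED30 and 35 had parental MYC. The share of all genes under this wider rule was not computed, so these counts have no background. Under the same rule HSPA1A, HSPA1B and PFDN6 were the only members without a MED17 peak.

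These 3 genes all lie in the major histocompatibility complex (MHC), taken here as GABBR1 to KIFC1, chr6:29602238-33409896. Of the 147 protein-coding genes there, 12 were bound by MED17, 7 by MED30 and 3 by MYC in parental cells (8.16%, 4.76% and 2.04%), against 47.7%, 44.2% and 38.5% of the 902 other genes of the chromosome. Alternate MHC contigs carried 62 peaks of MED17, 47 of MED30 and 31 of parental MYC, which were not assigned to genes. Their part in the absence of peaks at HSPA1A, HSPA1B (the stress-inducible HSP70 pair) and PFDN6 was not tested. The nearest MED30 peak to HSPA1B was 4.38 kb away, with a fold of 7.39, and the nearest MED17 peak to PFDN6 was 7.51 kb away.

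The highest MED30 peaks at chaperone gene starts were at HSP90AA1 (12.2), DNAJB1 (10.1), DNAJA1 (9.80, also counted for APTX) and HSP90AB1 (9.40), all at or above the 97th percentile of the list. Their promoters were searched for the paired heat shock units GAANNTTC and TTCNNGAA on both strands, which can overlap each other. The 250 bases before a listed start of each gene are printed to show these units, which are in capitals. They are RefSeq sequences of GRCh38.p14, written 5′ to 3′ on the gene's strand, and these 4 genes were chosen after their MED30 values were seen.
HSP90AA1, chr14:102087045-102087294, minus strand: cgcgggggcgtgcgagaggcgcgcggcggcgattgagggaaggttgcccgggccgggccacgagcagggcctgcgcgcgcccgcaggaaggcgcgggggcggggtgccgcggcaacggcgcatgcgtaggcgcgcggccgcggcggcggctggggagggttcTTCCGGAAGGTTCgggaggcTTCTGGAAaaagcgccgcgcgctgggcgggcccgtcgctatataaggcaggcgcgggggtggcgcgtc
DNAJB1, chr19:14518398-14518647, minus strand: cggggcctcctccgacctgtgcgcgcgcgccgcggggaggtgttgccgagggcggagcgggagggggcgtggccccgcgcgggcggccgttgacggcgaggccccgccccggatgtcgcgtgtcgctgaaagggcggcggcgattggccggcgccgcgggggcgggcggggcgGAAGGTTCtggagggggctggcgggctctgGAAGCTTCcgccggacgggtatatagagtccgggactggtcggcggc
DNAJA1, chr9:33025023-33025272, plus strand: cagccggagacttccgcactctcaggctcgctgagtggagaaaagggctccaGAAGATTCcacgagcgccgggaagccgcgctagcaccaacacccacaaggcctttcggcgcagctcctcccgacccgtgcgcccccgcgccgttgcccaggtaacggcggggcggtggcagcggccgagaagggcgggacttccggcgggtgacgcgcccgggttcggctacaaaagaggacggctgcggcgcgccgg
HSP90AB1, chr6:44247693-44247942, plus strand: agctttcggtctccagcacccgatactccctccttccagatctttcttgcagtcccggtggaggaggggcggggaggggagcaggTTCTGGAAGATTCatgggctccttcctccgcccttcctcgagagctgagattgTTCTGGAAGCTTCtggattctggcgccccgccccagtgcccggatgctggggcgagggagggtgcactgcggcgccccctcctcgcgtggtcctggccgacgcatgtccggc
In HSP90AA1 the 3 units begin 88, 83 and 68 bases before the start, 66, 61 and 46 bp from the MED30 summit. In DNAJB1 the 2 units lie 55 and 25 bp from the summit. The HSP90AB1 stretch precedes a second listed start inside the gene, and its 4 units lie 662 to 720 bp from the MED30 summit, which sits 19 bp after the other start. In DNAJA1 the printed unit is 179 bp from the summit, and a further unit 3 bases after the start, not printed, is 22 bp from it.

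Heat shock units were more frequent in chaperone promoters than in promoters at large. From 250 bases before to 50 after a listed start, GAANNTTC was found in 12 of 35 chaperone genes (34.3%, against 7.38% of genes with a listed start) and TTCNNGAA in 8 (22.9%, against 8.84%). A longer run of 3 alternating units (GAA, TTC, GAA, with any 2 bases between neighbours), added after seeing the data and overlapping both pairs, was in 5 genes (14.3%, against 0.537%): HSP90AA1, HSP90AB1, HSPA8, DNAJA1 and HSPD1. A match is a run of letters and not a measured site.

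Where bound, chaperone genes with a heat shock pair stood higher in both Mediator lists than those without, while in MYC the order was the opposite and narrow. Of 15 genes with a pair, 12 had a MED30 peak at a start, and their median fold lay at the 92.3rd percentile of genes with such a peak. The 20 genes without a pair had 17 peaks with a median at the 62.9th percentile. For MED17, 12 of the 15 genes with a pair were bound and 19 of the 20 without. Over all genes with a listed start, 46.1% of those with a pair and 52.8% of those without had MED17 there. For MED30 these shares were 39.7% and 45.7%, so binding was also less frequent with a pair among all genes. The MED17 medians of the bound chaperone genes were at the 87.3rd percentile with a pair and the 59.1st without, a gap of similar size. For parental MYC the medians were at the 67.6th and 72.7th percentiles. Among all genes with a pair the MED30 median lay at the 52.2nd percentile, against the 49.7th without. For MED17 the order over all genes was reversed, at the 46.3rd percentile with a pair and the 50.5th without. The 5 genes with the longer run had a MED30 median at the 98.9th percentile, against the 58.9th for the 36 bound genes with it among all genes. From the nearest such run to the MED30 summit the distance was 24 bp at DNAJA1, 28 bp at HSPA8, 64 bp at HSP90AA1, 187 bp at HSPD1 and 664 bp at HSP90AB1.

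**Figure D3:**
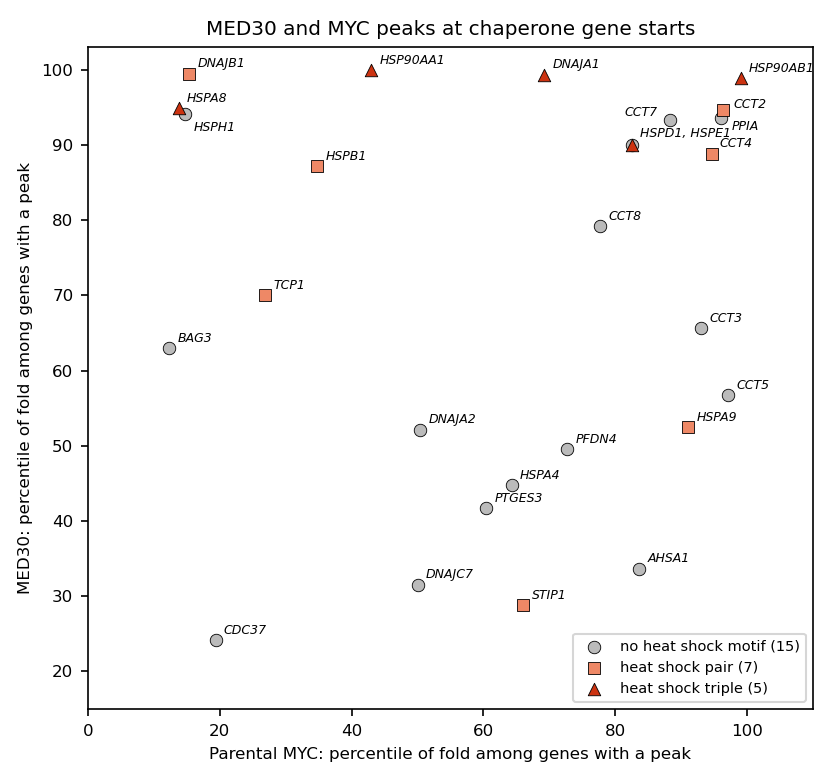
Percentile of fold enrichment for parental MYC (x axis) against MED30 (y axis), among genes with a peak at a listed start, for the 27 chaperone genes with both. Symbols mark promoters with no heat shock motif, with a pair, and with the longer run of 3 units, called triple in the key. DNAJB1, HSPA8 and HSPH1 lie at the upper left, while HSP90AB1, CCT2, CCT7 and PPIA lie at the upper right and CCT5 and HSPA9 at the right.

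E-boxes were not frequent in these promoters. CACGTG was found in 3 of 35 chaperone genes (8.57%, against 10.9%), namely HSPA9, HSPD1 and HSPE1, and the last 2 share 1 site. The stretches of HSPA9 and of the gap between HSPD1 and HSPE1 are printed with the E-box in capitals, in the same format and from the same source as above. PFDN1, with Mediator and no MYC peak, is shown for comparison and has no CACGTG.
HSPA9, chr5:138575402-138575651, minus strand: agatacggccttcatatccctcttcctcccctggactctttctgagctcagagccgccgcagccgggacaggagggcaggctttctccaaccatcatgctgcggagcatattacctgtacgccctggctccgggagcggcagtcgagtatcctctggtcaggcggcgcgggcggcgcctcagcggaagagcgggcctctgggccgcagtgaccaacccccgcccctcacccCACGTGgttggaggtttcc
HSPD1 to HSPE1, chr2:197500275-197500378, plus strand: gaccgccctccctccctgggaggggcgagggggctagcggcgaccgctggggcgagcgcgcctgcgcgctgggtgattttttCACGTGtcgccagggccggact
PFDN1, chr5:140303102-140303351, minus strand: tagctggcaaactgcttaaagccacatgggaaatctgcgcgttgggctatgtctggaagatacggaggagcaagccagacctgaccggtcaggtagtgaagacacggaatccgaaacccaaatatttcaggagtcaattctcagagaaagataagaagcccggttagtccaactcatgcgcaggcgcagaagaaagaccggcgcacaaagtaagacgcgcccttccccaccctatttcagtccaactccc
In HSPA9 the E-box starts 19 bases before the gene start, 11 bp from the parental MYC summit, and 7 and 36 bp from the MYC summits without and with doxycycline, but 111 bp from that of MED30. In the 104 bases between HSPD1 and HSPE1 it was 384 bp from the parental summit and 2 bp from the summit without doxycycline, measured from HSPE1. Over all genes with an E-box and a peak, the median distance was 89 bp for parental MYC, 46 bp without doxycycline, 184 bp for MED30 and 360 bp for MED17. The other TRiC and HSP90 promoters with high MYC folds, such as CCT5 and HSP90AB1, held no CACGTG in these windows.

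MED17 and MED30 summits sat at different places relative to the start. At chaperone genes the median MED17 summit was 204 bp downstream of the nearest listed start, against 176 bp for all genes, and 25 of 31 were downstream (80.6%, against 71.2%). The median MED30 summit was at -21 bp, and 26 of 29 lay within 250 bp of the start (89.7%, against 75.2% of all genes). The median for parental MYC was -15 bp, with 17 of 29 within 250 bp (58.6%, against 65.6%). MED17 lay further downstream than MED30 at 24 of 29 chaperone genes (82.8%, against 68.7% of all genes), with a median difference of 197 bp against 150 bp. Both Mediator libraries were fixed in the same way, and peak widths at chaperone gene starts had medians of 1129 bp for MED17 and 931 bp for MED30.

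**Figure D4:**
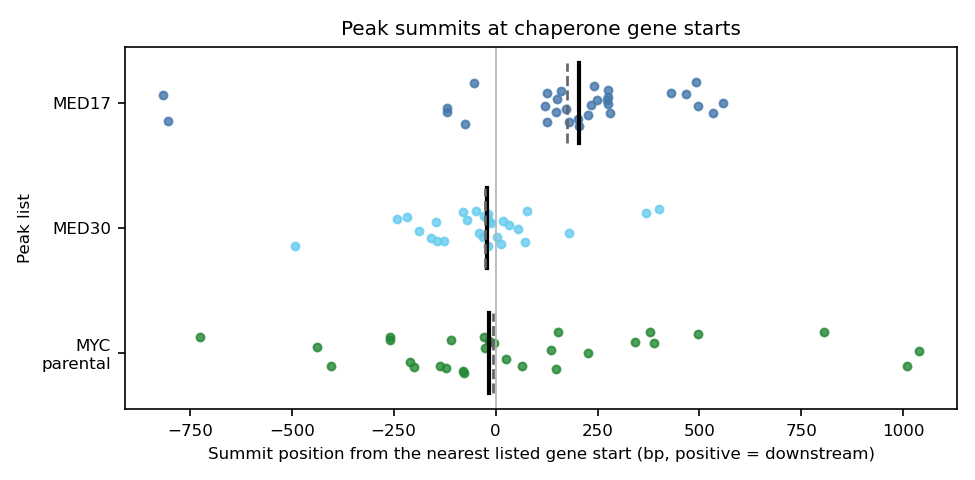
Position of the strongest peak's summit from the nearest listed gene start (x axis, bp, positive is downstream) for chaperone genes in the 3 parental lists (y axis, points spread vertically for visibility). Solid bars are the medians of chaperone genes, 204, -21 and -15 bp, and dashed bars those of all genes, 176, -25 and -7 bp. MED17 points gather downstream of the start and MED30 points around it.

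Counted at gene ends, MYC peaks of the shMED30 line without doxycycline fell on chaperone genes with the stronger parental peaks. Of the 34 genes with a parental MYC peak, 14 also had one without doxycycline (41.2%, against 20.9% of all genes with a parental peak). All 14 had a parental fold at or above the median of bound genes, 4.68. This was 14 of 24 such chaperone genes (58.3%, against 35.4%), and 0 of the 10 below it (against 6.4%). With doxycycline, HSPA8 and TCP1, with parental folds of 3.62 and 3.99, had a MYC peak although they lay below that median. Counted at starts, HSP90AA1 had a peak without doxycycline although its parental fold of 4.45 lay below the start median of 4.67. Background pileup was 8.27 times higher in the parental library than without doxycycline, so weak peaks could not be detected equally in both.

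With doxycycline, 8 of the 14 genes kept an overlapping MYC peak (57.1%, against 33.5% of 1713 genes): TRAP1, HSPA9, CCT3, CCT4, CCT5, CCT7, PPIA and HSF1. The 6 that lost it were STIP1, HSPD1, HSPE1, CCT2, CCT6A and CCT8, and HSPD1 and HSPE1 share 1 peak. HSPA8, TCP1 and PFDN2 had a peak only in the doxycycline list, 3 of 26 genes without one before (11.5%, against 1.9%). Background pileup with doxycycline was 0.599 times that without, so loss of binding and lower depth cannot be told apart at a weak peak.

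Genes that kept a peak had, by the median of their strongest peak, a higher fold before doxycycline than genes that lost it. Kept genes had a median fold of 8.60 and a pileup of 15, and lost genes 5.04 and 7. Over all genes the same medians were 7.38 and 12 for kept and 5.36 and 8 for lost. Among chaperone genes at or above the median fold of bound genes, 8 of 9 kept a peak (against 52.3% of all such genes), CCT8 being the exception, and 0 of 5 below it did (against 14.5%). A gene was placed by its strongest peak and counted as kept when any of its peaks was overlapped, and at CCT7 the overlapped peak was the weaker of 2, with a fold of 4.44 and 8 fragments, below the fold of every lost peak. Scaled by the depth ratio, the lost peaks would have had 4.20 to 5.99 fragments, against a lowest summit of 3 and a median of 6 fragments in the doxycycline list.

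Individual genes differed in how their summits compared. CCT5 had a pileup of 26 fragments without doxycycline (exact 95% Poisson interval 17.0 to 38.1) and 23 with it (14.6 to 34.5). PPIA had 20 (12.2 to 30.9) and 23 (14.6 to 34.5), and both genes lay above the 97th percentile of the doxycycline list by fold, at 12.8 and 11.6. HSF1 had 24 (15.4 to 35.7) and 9 (4.12 to 17.1), and its fold was 11.0 before and 6.48 after. Both HSF1 peaks lay just outside the gene and were also counted for BOP1. All of these intervals cover counting error only. Scaled by depth, the first pileups correspond to 15.6 for CCT5, 12.0 for PPIA and 14.4 for HSF1, so CCT5 and PPIA stood above that value and HSF1 below it. The scaled value lay inside the doxycycline interval for CCT5 and HSF1 and below it for PPIA, before counting error in the first library is allowed for.

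The remaining kept genes had low counts. CCT4 had folds of 9.88 without doxycycline and 5.17 with it, TRAP1 8.93 and 6.19, HSPA9 7.86 and 6.55, and CCT3 6.39 and 6.57 from peaks lying just outside the gene. CCT7 had 2 peaks without doxycycline. The stronger, of fold 7.81 with its summit at -513 bp from the start, was not overlapped afterwards, and the weaker, of 4.44, was overlapped by a peak of 5.45. The lost peaks had folds of 6.18 at CCT8, 5.87 at CCT2, 5.33 at STIP1 and 4.75 at both CCT6A and the HSPD1 and HSPE1 pair. The gained peaks had 8 fragments at TCP1 and PFDN2, with folds of 5.58 and 6.64, and 4 at HSPA8 (1.09 to 10.2), with a fold of 4.18.

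HSP90AB1 entered this comparison only at its listed starts. Its MYC peak without doxycycline had a fold of 9.38 and a pileup of 18 fragments (10.7 to 28.4), or 10.8 after scaling, above the median fold and pileup of the kept genes, and the nearest MYC summit with doxycycline was 9.88 kb away. Of the 125 genes with a pileup at least as high at a start, 105 kept their peak (84%). HSP90AA1 also had a weak peak without doxycycline at a start, of 5.28 and 8 fragments, and none with it. Counted at starts, 7 of 14 chaperone genes kept their peak (against 33.8%) and 7 lost it.

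**Figure D5:**
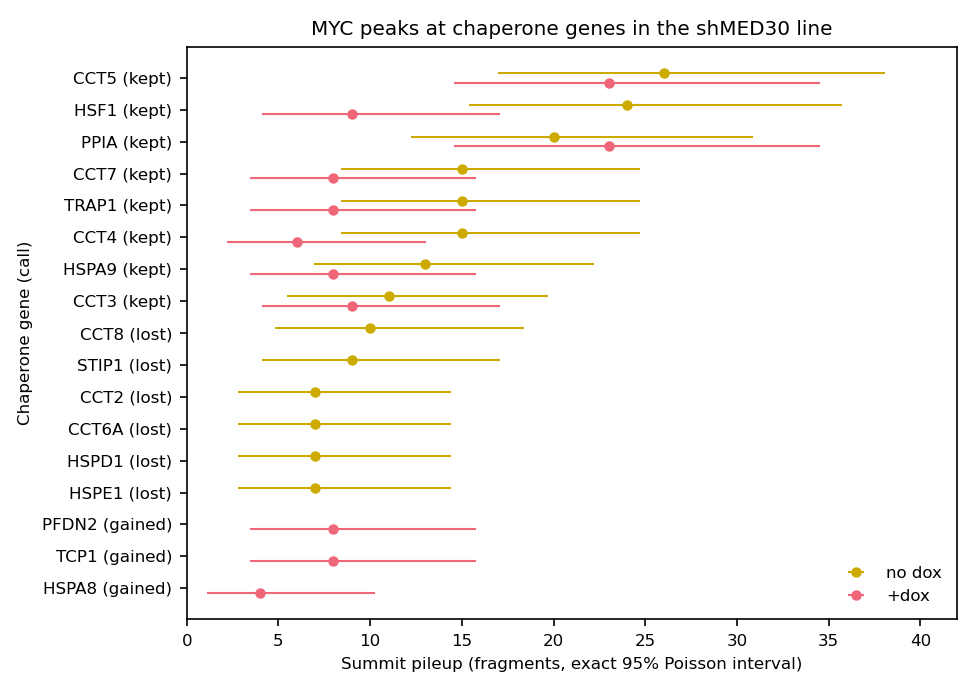
Summit pileup (x axis, fragments) of the strongest MYC peak at the 17 chaperone genes with a peak in either shMED30-line library (y axis, with the call by overlap), without and with doxycycline, with exact 95% Poisson intervals that cover counting error only. Values are not scaled for depth. CCT5 and PPIA keep 23 fragments each with doxycycline, HSF1 goes from 24 to 9, and the 6 genes called lost have 7 to 10 fragments. Of these, HSPD1 and HSPE1 show the same peak.

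Related gene lists showed how far the pattern of binding reached. Of 14 ER chaperone genes, 13 had MED17, 13 MED30 and 11 parental MYC, with PDIA6 in no list. CALR, SDF2L1 and P4HB had the highest MED30 folds of these, 7.33, 6.28 and 5.69, and CALR, a calcium-binding lectin chaperone, had no parental MYC peak. Of 25 other cytosolic co-chaperones, 24, 21 and 21 were bound, URI1 having no peak. Their highest MED30 folds were 8.14 at PDCL3, 6.84 at NUDC and 6.69 at UXT, and NUDC had no parental MYC peak. Of 8 other mitochondrial chaperones and proteases, 7, 7 and 8 were bound, with MED30 folds of 7.53 at GRPEL2, 7.38 at the matrix protease LONP1 and 6.69 at HSCB, and LONP1 had a MYC fold of 9.18.

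The 31 proteasome subunit genes were bound nearly as often in parental cells, 27 by MED17, 22 by MED30 and 24 by MYC, and PSMA6 and PSMC2 had no peak. Their highest MED30 folds were 7.96 at PSMB4, 7.21 at PSMD2 and 6.95 at PSMC5. In the shMED30 line 4 of the 31 (12.9%, against 8.55% of all genes) had a MYC peak without doxycycline, and none was kept. With doxycycline 1 of the 31 had one (3.23%, against 4.71%). Without doxycycline MYC was at 3 of 14 ER chaperone genes, 6 of 25 other cytosolic co-chaperones and 2 of 8 other mitochondrial genes. Of these genes 1, 2 and 1 kept a peak, in the same order. The other heat shock paralogs had no MYC peak in the shMED30 line. Differences of these lists from the chaperone genes, 14 of 40 and 8 kept, were not tested. Of 16 other heat shock paralogs, largely stress-inducible or tissue-restricted copies, 5 had MED17, 5 MED30 and 2 parental MYC, and 10 had no peak in any list: HSPA1L, HSPA2, HSPA12B, HSPB2, HSPB3, HSPB7, HSPB8, HSPB9, CRYAA and CRYAB. HSPA4L, CCT6B and HSPB6 had the highest MED30 folds of these, 6.19, 6.13 and 5.48.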

How the data were processed

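ChIP-seq peak lists of 5 libraries, 1 per group, were used; per the submitters' processing notes, Trim Galore, Bowtie2, MACS2, deepTools and hg38 were used, and versions and any input control were not given in the sources used here. Reads were paired, 100 bp. The authors deposited per peak a fold (ratio over local background), −log10 p-values and −log10 q-values, and a score. Summit pileup was recovered from the deposited fold and −log10 p, and 99.4 to 99.8% of peaks per list matched a whole pileup within 0.002 log10. Peaks were assigned to RefSeq genes of GRCh38.p14 by overlap of at least 1 bp with 1 kb around either gene end, or around listed starts. Percentiles are ranks of fold within 1 list. A MYC peak was kept when a peak of the doxycycline list overlapped it by at least 1 bp. Poisson intervals are exact. No test was run. Python 3.11.15, pandas 2.3.3, numpy 2.4.6, scipy 1.17.1 and matplotlib 3.10.9 were used, and the assignment was tested on simulated data.

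The members and lists were chosen with earlier results of these data known. Named with values were the 10 members with the highest parental MYC fold, members lacking a parental peak, members with a shMED30-line peak, members whose MYC peak lies past the gene, and from each related list up to 3 genes of highest MED30 fold and those with no peak. The remaining members were added so that each of the 40 is accounted for. Other windows, peak thresholds and motif windows were tried as alternatives.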

Additional observations from a re-analysis of the deposited data

Results flagged for a closer look

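Peaks on the alternate contigs of the major histocompatibility region of chromosome 6 fell outside every comparison above, since no gene position on those contigs was used. The MED17 list held 62 such peaks, the MED30 list 47, the parental MYC list 31, the no-doxycycline MYC list 8 and the doxycycline MYC list 5. There are no control libraries among these lists, so no background was available for these numbers. HSPA1A, HSPA1B and PFDN6 lie in this region on the main chromosome sequence and had no peak there. Positions on the contigs were not converted, so whether any of these peaks belongs to the 3 genes was not tested.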

How the results depend on the processing

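No paired analysis was possible because each group had 1 library and the labels give no shared replicate numbers. Windows of 500 bp or 5 kb, listed starts, summits within 1 kb, a q of 0.01 or lower, 50% reciprocal overlap and the upper 50% of peaks by fold were tried. Across these, 69 recomputed counts stayed within 1.5 times the reported ones and 4 did not. When only peaks in the upper 50% by fold were kept, 15 members had MED17, MED30 and parental MYC in place of 31. With promoter windows of 100 bases before to 50 after the start, GAANNTTC was in 6 members in place of 12 (17.1%, against 3.34% of genes with a listed start). The run of 3 alternating units was in 3 in place of 5 (8.57%, against 0.259%) and CACGCG in 6 in place of 12 (17.1%, against 11.0%). The window is shorter by construction, and the last 2 motifs were added after seeing the data. With 1 library per group, culture-to-culture spread is unknown, and at the depth of the shMED30-line libraries an absent MYC peak means that none was detectable.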

Other observations

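Other promoter motifs were counted in the same windows, on both strands. CCAAT was in 13 of 35 chaperone genes (37.1%, against 42.1% of genes with a listed start) and TATAAA in 4 (11.4%, against 12.4%). CACGCG, an E-box variant that MYC can also bind, was searched after the data were seen and was in 12 (34.3%, against 18.1%). These are counts of letters, and no relation to binding was tested.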
